A study of Daphnia magna with 80 samples.

Results

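Gene expression was compared in old females of the water flea Daphnia magna, between animals of 75 and 80 days and animals of 60 and 65 days. Members were chosen by sex and age in the sample titles: 10 of the 80 samples of the series, with 3 females of 75 days and 3 of 80 days in the later group, and 2 of 60 days and 2 of 65 days in the earlier group. All were whole females of strain Bham2, an untreated laboratory line kept under normal conditions in high hardness COMBO medium with the green alga Chlorella vulgaris as food, and frozen once the brood pouch had emptied. The study sampled females and males of this strain across adult life, with 39 female libraries from 10 to 80 days. Neither the origin of the replicates nor the number of animals per sample stands in the labels, so p-values measure only how far these samples differ among themselves, in part perhaps for technical reasons.

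Daphnia females usually reproduce without mating and release broods of genetically identical young at regular intervals, with a moult between broods. A library of the whole animal holds RNA of gut, muscle, nervous system, epidermis, fat cells and ovary at once. In such bulk samples, fewer cells of a type and less RNA per cell cannot be told apart. The files give gene IDs without names, and 0 of 26646 IDs matched the reference table, so tissue markers such as yolk protein, opsin or myosin genes could not be read, and the IDs below carry no function.

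The 10 libraries held 2242215 to 26314552 gene counts, and 2 were shallow: 75-day replicate 2 with 2242215 and 65-day replicate 2 with 5058275. Both stood apart. Over all 45 pairs of libraries, log2 CPM (counts scaled to 1000000 per library) correlated at 0.723 to 0.955, and 75-day replicate 2 had a median correlation with the others of 0.773. The first principal component (24.3% of the variance) set 75-day replicate 2 apart, the second (22.7%) set 65-day replicate 2 apart, and the third (16.3%) set 75-day replicate 3 apart; none of these 3 divided the later from the earlier animals. Spike-in RNA took 2.31% and 1.99% of the counts in 75-day replicates 2 and 3, against 0.318% to 0.994% in the other 8. The log2 ratio of the synthetic transcripts SIRV7 and SIRV1 lay between -0.75 and -0.20 in 9 libraries and at 0.18 in 80-day replicate 3.

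No single gene passed the test between the later and the earlier females, although many differed in level by more than 2-fold. Of 15894 genes tested with edgeR's quasi-likelihood test, 0 were higher and 0 were lower at an adjusted p under 0.05, a share of 0% in each direction, and the smallest adjusted p was 0.133. In simulated counts for these libraries the test recovered 9 of 100 genes given a log2 change of 1. It recovered 57 of 100 given a log2 change of 2, so the count of 0 does not mean that levels stayed the same. In the simulation, genes of like level shared 1 spread and no library was made to stand apart. Recovery in the real libraries, with 75-day replicate 2 among them, may therefore differ. At an unadjusted p under 0.05, 936 genes were higher (5.89%) and 761 lower (4.79%). DESeq2 called 386 genes, 273 higher and 113 lower, and limma-voom called 0. Leaving out 75-day replicate 2 gave 93 calls, 85 higher and 8 lower, and leaving out 75-day replicate 1 gave 1.

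The size of the changes was close to the spread between replicates. The median absolute log2 change was 0.38 and the median standard error 0.40. At least 2-fold higher values were fitted for 1232 genes (7.75%) and at least 2-fold lower ones for 685 (4.31%). These large changes were most frequent among genes of low level: 35.1% of the 1312 genes with a mean log2 CPM under 0 changed by at least 2-fold in either direction, against 4.62% of the 7209 genes between 3 and 6. The 2 groups did not overlap for 390 genes that were higher in every later library (2.45%) and 364 that were lower in every later library (2.29%).

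Replicates of 75 days were less alike than those of the other 13 ages with replicates. The median SD of log2 CPM over 8611 genes was 0.56 at 75 days, against 0.22 at 60 days, 0.27 at 65 days and 0.22 at 80 days. At 10 and 15 days it was 0.13. The SDs of 60 and 65 days come from 2 libraries each, and those of 75 and 80 days from 3. A median SD from 2 libraries tends to be lower, so 60 and 65 days may look more alike than they were, thinned or not. At 75 days, replicates 1 and 3 differed from each other by an SD of 0.20, and from replicate 2 by 0.58 and 0.56. After every library was thinned to 2242215 counts the median SD was 0.69 at 75 days, 0.43 to 0.47 at the other 3 late ages, and 0.48 and 0.43 at 10 and 15 days, so that only 75 days stayed above the younger ages. By the root mean square over genes, thinned, 65 days (1.13) exceeded 75 days (1.07). Within the whole later group the median SD over 8282 well-expressed genes was 0.45, or 0.26 without 75-day replicate 2, and within the earlier group 0.36. The group means of these genes differed by a median of 0.30, and for 30.1% of them the difference exceeded the pooled SD.

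**Figure D1:**
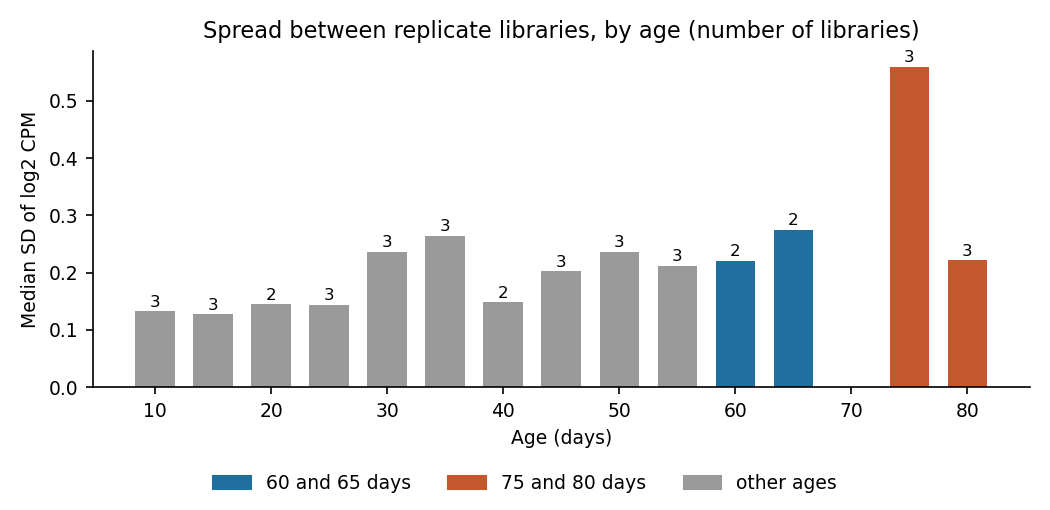
Bars give the median over 8611 genes of the SD of log2 CPM between replicate libraries of 1 age, with age in days on the horizontal axis and the number of libraries above each bar. The bar of 75 days reaches 0.56 and those of 60, 65 and 80 days lie between 0.22 and 0.27; the single library of 70 days gives none.

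Values are given for the 2 higher and 2 lower genes of smallest p among those whose mean log2 CPM was 3 or more. APZ42_033807 had 13.3, 8.31, 8.96 and 8.37 CPM in 60-day replicates 1 and 3 and 65-day replicates 2 and 3, and in the 6 later libraries 19.8 at the lowest, 30.9 in the median and 35.4 at the highest. APZ42_013942 had 36.7, 33.2, 27.9 and 29.8 CPM in the same 4 earlier libraries and 59.5, 80.6 and 94.1 CPM as the lowest, median and highest later values. For both genes every later library lay above every earlier one. Their log2 differences were 1.55 ± 0.25 (SE) and 1.26 ± 0.20, each with an edgeR adjusted p of 0.133.

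Of the lower genes, APZ42_023794 had 302.9, 453.6, 256.6 and 190.9 CPM in the 4 earlier libraries, and 10.2, 24.1 and 79.6 CPM as the lowest, median and highest later values. APZ42_024609 had 56.6, 67.5, 70.5 and 48.1 CPM in the earlier libraries and 15.3, 25.4 and 30.9 CPM in the later ones, in the same order. Again the groups did not overlap for either gene. The log2 differences were -3.13 ± 0.50 and -1.40 ± 0.23, with an edgeR adjusted p of 0.133. All 4 genes kept their direction in each of 29 other settings, in which adjusted p ran from 4.32e-07 to 0.999. The 4 passed with DESeq2, without 75-day replicate 2 and when all 39 female libraries were fitted together. They were chosen by smallest p in these 10 libraries, which every setting uses in full or in part. Their constant direction and the lack of overlap are therefore no separate support.

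Across the rest of adult life these 4 genes took different courses. APZ42_033807 averaged 65.5 ± 18.1 CPM (SD, n = 6) at 10 and 15 days, 20.7 ± 6.51 (n = 6) at 25 and 30 days, 36.2 ± 7.05 (n = 5) at 35 and 40 days, 13.7 ± 3.85 (n = 6) at 50 and 55 days and 9.73 ± 2.39 (n = 4) at 60 and 65 days, before 29.4 ± 5.70 (n = 6) at 75 and 80 days. Its mean was thus higher at 35 and 40 days than at 25 and 30 days, before the late difference. APZ42_013942 had 227.3 ± 22.7 CPM at 10 and 15 days, 82.3 ± 15.6 at 25 and 30 days, 153.1 ± 47.5 at 35 and 40 days, 44.9 ± 7.52 at 50 and 55 days, 31.9 ± 3.90 at 60 and 65 days and 77.8 ± 12.6 at 75 and 80 days. For both genes the later mean lay between those of 10 and 15 days and of 60 and 65 days. APZ42_023794 was higher at 60 and 65 days, with 301.0 ± 111.6 CPM, than its mean in any of the other 5 pairs of ages, which ran from 35.3 to 148.4. Its replicates of a single age also varied widely, with 174.0, 14.5 and 186.8 CPM at 55 days and 34.2 and 219.7 CPM at 40 days. The single library of 70 days held 8.88 CPM of APZ42_033807, 34.5 CPM of APZ42_013942 and 226.4 CPM of APZ42_023794, all at the earlier level. It held 17.6 CPM of APZ42_024609, at the later level.

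**Figure D2:**
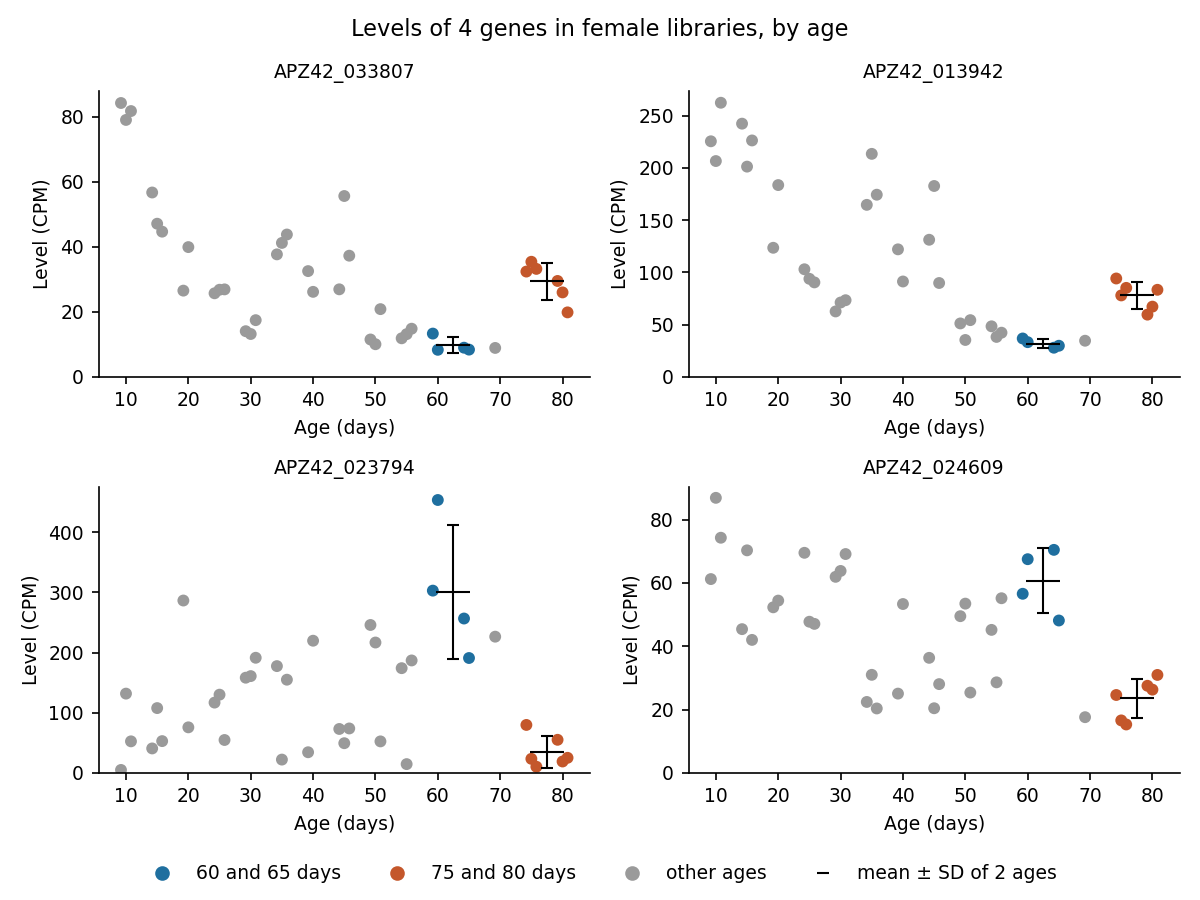
Each point is 1 of 39 female libraries, with age in days on the horizontal axis (replicates set side by side) and the level in CPM on the vertical axis, for the 4 genes with the smallest p; bars give the mean and SD of the 2 coloured pairs of ages. The 6 later libraries lie above all 4 earlier ones for APZ42_033807 (at least 19.8 against at most 13.3) and below them for APZ42_023794 (at most 79.6 against at least 190.9).

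Within the later group, 2 genes differed between 80 and 75 days. They are named here because they were the only calls, so they were chosen after their values were seen. APZ42_014831 had 23.2, 17.5 and 25.8 CPM at 75 days and 571.0, 176.8 and 484.6 CPM at 80 days. APZ42_014848 had 15.0, 4.92 and 12.1 CPM at 75 days and 429.1, 172.3 and 373.2 CPM at 80 days. The 3 libraries of 80 days lay far above the 3 of 75 days for both, and the 4 earlier libraries lay between, with 40.3 to 130.8 CPM for the first gene and 17.3 to 75.7 CPM for the second. The log2 differences were 4.18 ± 0.49 and 4.88 ± 0.57, each with an edgeR adjusted p of 0.0477, and these 2 higher genes made up 0.0126% of those tested. The calls were lost on leaving out 75-day replicate 1, 2 or 3 or 80-day replicate 1 or 3, while DESeq2 called 38 genes. Between 65 and 60 days edgeR called 0 genes, a share of 0%, with 524 higher (3.3%) and 728 lower (4.58%) at an unadjusted p under 0.05, and DESeq2 called 166.

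A second question was whether genes that changed with age before 60 days went on in the same direction after it. They did not on balance: those that had fallen were more often higher in the oldest females, and those that had risen more often lower. The lists came from 28 female libraries of 10 to 55 days, none of which is in the comparison, and held 3252 genes that rose with age and 3169 that fell, by an edgeR slope at an adjusted p under 0.05. Of 3164 falling genes tested between the later and the earlier females, 2443 (77.2%) were higher and 721 lower, with a median log2 change of 0.34. Of 3252 rising genes, 975 were higher and 2277 (70.0%) lower, with a median of -0.21. Over all genes tested, 50.9% were higher and 49.1% lower, with a median of 0.01.

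Genes of these lists were also counted by unadjusted p and by overlap of the groups. Among the falling genes, 623 (19.7%) were higher at an unadjusted p under 0.05 and 18 lower, and the groups did not overlap for 283 higher genes (8.94%) and 14 lower ones. The matching background was 5.89% for higher genes by unadjusted p and 2.45% for higher genes without overlap. Among the rising genes, 29 were higher and 347 (10.7%) lower at an unadjusted p under 0.05, with a background of 4.79% for lower genes, and 173 (5.32%) were lower without overlap, against 2.29%. With spike-in library sizes in place of TMM, the median of all genes shifted to -0.19, and the medians of the falling and rising lists were 0.15 and -0.43.

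The mean level of each list was then followed over life. Levels are the mean log2 CPM of a list less the mean of all genes in the same library. The falling list stood at 1.87 ± 0.16 (SD, n = 6) at 10 and 15 days, 1.03 ± 0.14 (n = 6) at 25 and 30 days, 1.41 ± 0.26 (n = 5) at 35 and 40 days, 0.57 ± 0.11 (n = 6) at 50 and 55 days, 0.48 ± 0.14 (n = 4) at 60 and 65 days and 0.80 ± 0.11 (n = 6) at 75 and 80 days. The mean was thus also higher at 35 and 40 days than at 25 and 30 days. Every later library, from 0.68 to 0.95, was above every earlier one, from 0.33 to 0.66. The single library of 70 days, at 0.67, lay between the groups. The rising list stood at 0.61 ± 0.13 at 25 and 30 days, 0.41 ± 0.17 at 35 and 40 days, 0.93 ± 0.15 at 50 and 55 days, 1.00 ± 0.04 in the earlier group, 0.71 ± 0.14 in the later group and 0.73 in the library of 70 days, and its highest later value, 0.93 in 75-day replicate 3, was below the lowest earlier value of 0.96. At 10 and 15 days it had stood at -0.04 ± 0.11. With lists made from 10 to 40 days alone the groups overlapped: the falling list spanned 0.60 to 1.12 in the earlier and 0.54 to 1.24 in the later libraries, and the rising list 1.40 to 1.65 and 1.11 to 1.74. The median log2 changes of these shorter lists were 0.26 over 497 falling genes and -0.12 over 805 rising genes.

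The 2 rising and 2 falling genes of smallest p before 60 days did not pass the test in late life. APZ42_024126, which had risen by 0.45 ± 0.04 on the log2 scale per 10 days, had 35.9 to 44.1 CPM in the earlier and 21.5 to 44.7 CPM in the later libraries. APZ42_020116, with a slope of 0.49 ± 0.05, had 16.3 to 34.9 CPM in the earlier and 7.16 to 25.2 CPM in the later libraries. The ranges of earlier and later libraries overlapped for both. APZ42_028735, which had fallen with a slope of -0.71 ± 0.05, had 17.2 to 42.8 CPM and 5.82 to 38.5 CPM, and APZ42_015828, with a slope of -0.22 ± 0.02, had 39.9 to 49.2 CPM and 39.8 to 60.9 CPM. These ranges overlapped too, and the late log2 changes of the 4 genes ran from -0.71 ± 0.30 to 0.19 ± 0.18, with edgeR adjusted p from 0.443 to 0.761.

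Genes with higher levels in females than in males earlier in life were more often higher than lower in the later group, though edgeR called 0 of them. The lists compared 28 female libraries of 10 to 55 days with 34 male libraries of 10 to 40 days, with age as a covariate. Of 547 genes at least 4-fold higher in females, 542 were tested in late life: 428 were higher and 114 lower in the later group, with a median log2 change of 0.77. Of the 167 genes at least 16-fold higher in females, 166 were tested, of which 157 (94.6%) were higher, with a median of 1.09, and 83 of these met an unadjusted p under 0.05 against 5.89% of all genes. The groups did not overlap for 33 of the 166 (19.9%), all higher, against 2.45% of all genes higher without overlap.

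From pair to pair of ages, the level of this 16-fold list was lower until 60 and 65 days, except at 35 and 40 days. It was higher again at 75 and 80 days. The list stood at 3.09 ± 0.09 (SD, n = 6) at 10 and 15 days, 1.79 ± 0.44 (n = 6) at 25 and 30 days and 2.48 ± 0.25 (n = 5) at 35 and 40 days. It then stood at 0.87 ± 0.32 (n = 6) at 50 and 55 days, 0.43 ± 0.32 (n = 4) at 60 and 65 days and 1.36 ± 0.51 (n = 6) at 75 and 80 days. The earlier libraries held 0.57, 0.73, -0.02 and 0.43, and the later ones 0.39 at the lowest, 1.45 in the median and 1.94 at the highest. In this order 75-day replicate 2, the shallowest library, was the lowest of the later group and lay within the earlier range, while the other 5 were at least 1.40. The library of 70 days, at 0.41, lay with the earlier animals. The age lists and the sex lists share the 28 female libraries of 10 to 55 days.

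Genes with higher levels in males gave no common direction. Of 938 genes at least 4-fold higher in males, 701 passed the filter on low counts and 237 did not, so those tested are a choice made in part by their level in old females. Of the 701, 383 were higher and 318 lower, with a median log2 change of 0.10. The median was -0.05 without 60-day replicate 3 and -0.11 with spike-in library sizes. The level of the list spanned -2.21 to -0.54 in the earlier and -1.62 to -0.45 in the later libraries, which overlapped.

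**Figure D3:**
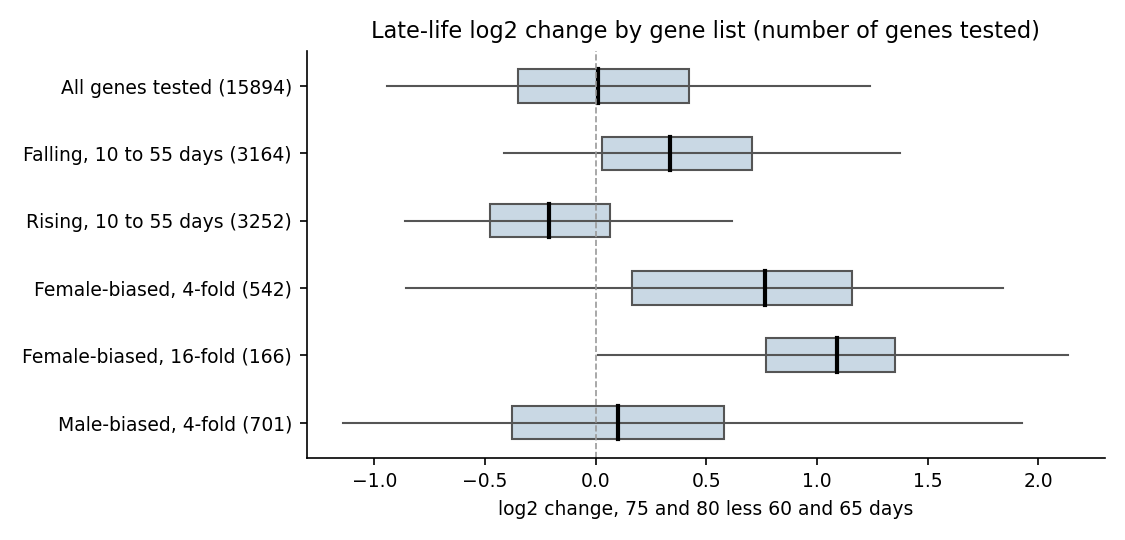
Log2 change from 60 and 65 to 75 and 80 days over the genes of each list: the thick line is the median, the box spans the quartiles and the thin line the 5% to 95% quantiles. The falling list (median 0.34) and both female lists (0.77 and 1.09) lie to the right of all genes (0.01), and the rising list (-0.21) to the left.

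**Figure D4:**
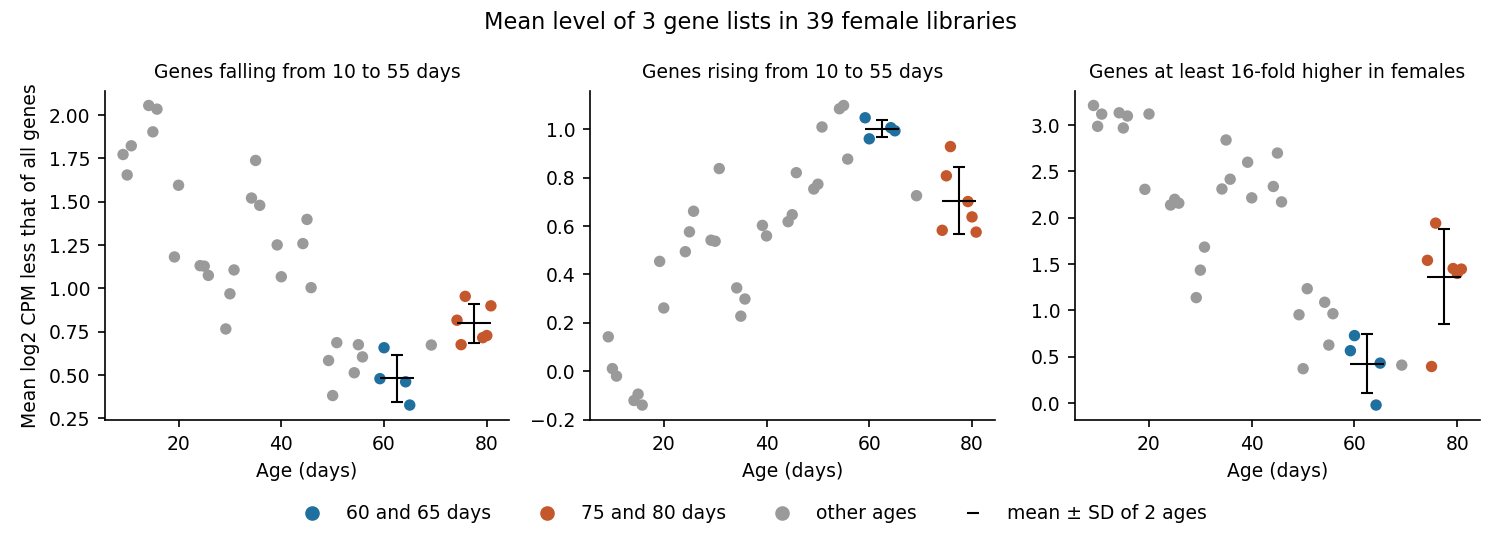
Mean log2 CPM of 3 lists less that of all genes, in each of 39 female libraries, against age in days with replicates set side by side; bars give the mean and SD of the 2 coloured pairs of ages. The later libraries lie above the earlier ones for falling genes (0.80 against 0.48) and below them for rising genes (0.71 against 1.00), and 1 later library lies low for the genes at least 16-fold higher in females.

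The late change was then set against 2 changes over the same 15 days at younger ages, with all 39 female libraries in 1 fit and no library in more than 1 of them. The early change ran from 10 and 15 to 25 and 30 days, and the midlife change from 35 and 40 to 50 and 55 days. Late in life 1776 genes rose (10%) and 507 fell (2.86%) of 17718 tested. Early in life 3100 rose (17.5%) and 2665 fell (15%), and in midlife 1765 rose (9.96%) and 1970 fell (11.1%). The spread in this fit comes from 39 libraries, 28 of them of 10 to 55 days with a median SD per age of 0.13 to 0.26, and in the fit of the 10 old libraries alone 0 genes passed. Both fits use the same 10 old libraries for the late change, so a shared direction is no support. Of the 1776 genes, 1578 were tested there and 867 of them were higher at an unadjusted p under 0.05, which 5.89% of all genes were. Of the 507 genes, 494 were tested there and 442 were lower, which 4.79% of all genes were. The same libraries picked these genes, so high counts were built in and are no separate support.

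The late count depended on the tool and the scaling. It was 1880 without the 2 shallowest libraries, of which 1308 were shared with the 2283 calls in all, and 2197 without 75-day replicate 2, of which 1818 were shared. In 283 of the 2283 called genes, 75-day replicate 2 lay at least 1 log2 unit above each of the other 9 libraries, and its part in these calls is read from the count without it. Among all genes tested, called or not, it did so in 1118. The next highest count among the calls was 16, for 65-day replicate 2. Limma-voom called 237 genes higher and 48 lower, and scaling by spike-ins called 93 higher and 6 lower.

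The directions of the late change and of the younger ones were set side by side. Of the 1776 late risers, 847 (47.7%) had fallen in the early change and 57 had risen, and 815 (45.9%) had fallen in midlife and 12 had risen. Of all genes tested, 15% fell early and 11.1% fell in midlife. These 847 and 815 genes were 31.8% of all genes that fell early and 41.4% of all that fell in midlife. Of the 507 genes that fell late, 212 (41.8%) had risen early and 11 had fallen, while 198 (39.1%) had risen in midlife and 3 had fallen, where 17.5% and 9.96% of all genes rose early and in midlife. Across the 17718 genes, which are not independent, the late log2 change correlated with the early one at a Pearson's r of -0.13 and with the midlife one at -0.14, while the midlife and early changes correlated at 0.53.

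The difference between the changes was itself tested. It passed for 5775 genes between the late and the early change, 3252 in the higher direction (18.4%) and 2523 in the lower (14.2%), and for 4940 genes between the late and the midlife change, 2931 higher (16.5%) and 2009 lower (11.3%). These tests used the 39-library fit, whose spread for each gene is pooled over all ages. The median replicate SD was 0.56 at 75 days and 0.22 to 0.27 at 60, 65 and 80 days. At the younger ages it was 0.13 to 0.26. The pooled spread may thus be too small for the late change, and the counts and p-values too favourable. Without 75-day replicate 2 the tests passed for 6210 and 5218 genes. With spike-in library sizes the same tests gave 3086 higher and 336 lower, and 1204 higher and 433 lower. Under that scaling the younger changes were split otherwise too, with 409 higher and 6403 lower early, where the median log2 change of all genes was -0.69 against 0.07 with TMM, and 297 higher and 1203 lower in midlife. The shares of late risers that had fallen, and of late fallers that had risen, were counted with TMM scaling only.

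The genes named next are those of smallest p in these tests, so they do not stand for all genes. They fell in both younger changes and rose late, but not in a single turn. From 25 and 30 to 35 and 40 days the mean of APZ42_013592 went from 31.6 to 48.3 CPM. That of APZ42_015273 went from 8.69 to 14.2 CPM, and that of APZ42_011412 from 77.8 to 117.6 CPM. APZ42_013592 had 14.9, 16.3, 9.95 and 11.3 CPM in the 4 earlier libraries, and 26.9, 30.8 and 35.2 CPM as the lowest, median and highest of the later ones. It fell by 1.29 on the log2 scale (SE 0.12) in the early change and by 1.22 (SE 0.13) in midlife, and rose by 1.27 ± 0.14 late in the 39-library fit. The late change exceeded the early one by 2.56 ± 0.19 (edgeR adjusted p = 1.23e-09) and the midlife one by 2.49 ± 0.19 (edgeR adjusted p = 1.89e-09), the smallest p of either test with that direction.

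APZ42_015273 had 2.15, 4.15, 1.39 and 0.93 CPM in the earlier libraries, from 7 to 64 counts, and 7.73 to 13.5 CPM in the later ones. It rose by 2.37 ± 0.20 late against a fall of -0.95 ± 0.15 early, a difference of 3.32 ± 0.25. APZ42_011412 had 30.1 to 48.0 CPM in the earlier and 72.3 to 89.1 CPM in the later libraries. It rose by 1.06 ± 0.13 late against -1.18 ± 0.12 in midlife, a difference of 2.24 ± 0.17. For these genes too the earlier and later libraries did not overlap.

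Other genes, also picked by smallest p, rose in a younger change and fell late. APZ42_026926 had 688.1, 574.0, 363.2 and 489.5 CPM in the 4 earlier libraries, and 205.7, 290.8 and 484.7 CPM as the lowest, median and highest later values, so that the groups overlapped. It rose by 3.13 ± 0.23 early and 2.48 ± 0.25 in midlife and fell late, by 0.81 on the log2 scale (SE 0.23, edgeR adjusted p = 0.0219). APZ42_024018 had 39.2 to 52.4 CPM in the earlier and 21.1 to 40.5 CPM in the later libraries, with a rise of 1.75 ± 0.15 early and a log2 change of -0.84 ± 0.16 late. APZ42_016294 had 53.6 to 88.6 CPM in the earlier and 38.9 to 50.1 CPM in the later libraries, with a rise of 1.14 ± 0.14 in midlife and a log2 change of -0.66 ± 0.14 late.

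The authors' deposited table for age gives 1 slope per gene, in log2 units per day, from a model that is not described. In the authors' deposited table APZ42_013592 had a slope of -0.0225 ± 0.0034 (SE) and APZ42_013942 one of -0.0270 ± 0.0043. APZ42_026926 had a slope of 0.0507 ± 0.0067 in the authors' deposited table. These 3 have the sign opposite to their late change, while APZ42_024609, with a slope of -0.0150 ± 0.0046 in the authors' deposited table, has the same sign as its late change.

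A block of 7 abundant genes that vary together took less of the RNA in the later females. These are the most abundant gene of the series and the 6 whose log2 CPM correlated with it at 0.9 or more over 76 libraries. The block held 28.7%, 33.6%, 25.7% and 66.5% of gene counts in 60-day replicates 1 and 3 and 65-day replicates 2 and 3, and 3.67% at the lowest, 19.3% in the median and 21.8% at the highest in the 6 later libraries. No later library reached the lowest earlier one. The single library of 70 days, at 5.95%, lay within the later range. The mean log2 share was lower by 1.32 in the later group (difference -1.32, exact permutation p = 0.00476, 2-sided, the smallest that 210 splits allow, and 0.00714 adjusted over 3 such measures). Without 65-day replicate 3 the difference was -1.02 with an exact permutation p of 0.107. Over life the share varied widely, from 2.86% to 54.7% at 50 and 55 days alone. Its mean was 14.7% at 10 and 15 days, 20.7% at 25 and 30, 10.1% at 35 and 40 and 20.9% at 50 and 55. With 38.6% in the earlier and 16.4% in the later group, the earlier females were high beside younger animals too.

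More genes were detected in the later females at equal depth. After thinning to 2242215 counts, 14203, 14395, 13969 and 13320 genes had at least 1 count in the 4 earlier libraries, and 15397, 16012 and 16693 were the lowest, median and highest later values. The groups did not overlap, and the means differed by 2037 genes (exact permutation p = 0.00476, 0.00714 adjusted). The share of the abundant block differed between the same groups. With the block left out of the thinning the difference was 1397 genes (exact permutation p = 0.0286), and for genes with at least 5 counts it was 857 (exact permutation p = 0.0381). The groups overlapped in both. Outside the block 65-day replicate 3 (15754) lay above 75-day replicate 2 (15616). At 5 counts 75-day replicate 2 (11862) lay below every earlier library but 65-day replicate 3 (9911), the others holding 11955 to 12213. The earlier females were also low beside younger animals, which held 15361 ± 240 genes (SD, n = 6) at 10 and 15 days and 15733 ± 824 (n = 6) at 50 and 55 days. The single library of 70 days held 16552 genes after thinning to 2242215 counts, within the later range.

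The spike-in share gave no difference past the threshold. It was 0.717% ± 0.294 (SD, n = 4) in the earlier and 1.27% ± 0.700 (n = 6) in the later group, a log2 difference of 0.77 with an exact permutation p of 0.186. The later values overlapped the earlier ones in 4 of 6 libraries, and 75-day replicates 2 and 3 lay above. The amount of spike-in added per sample is not stated, so total RNA per animal was not derived from it.

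**Figure D5:**
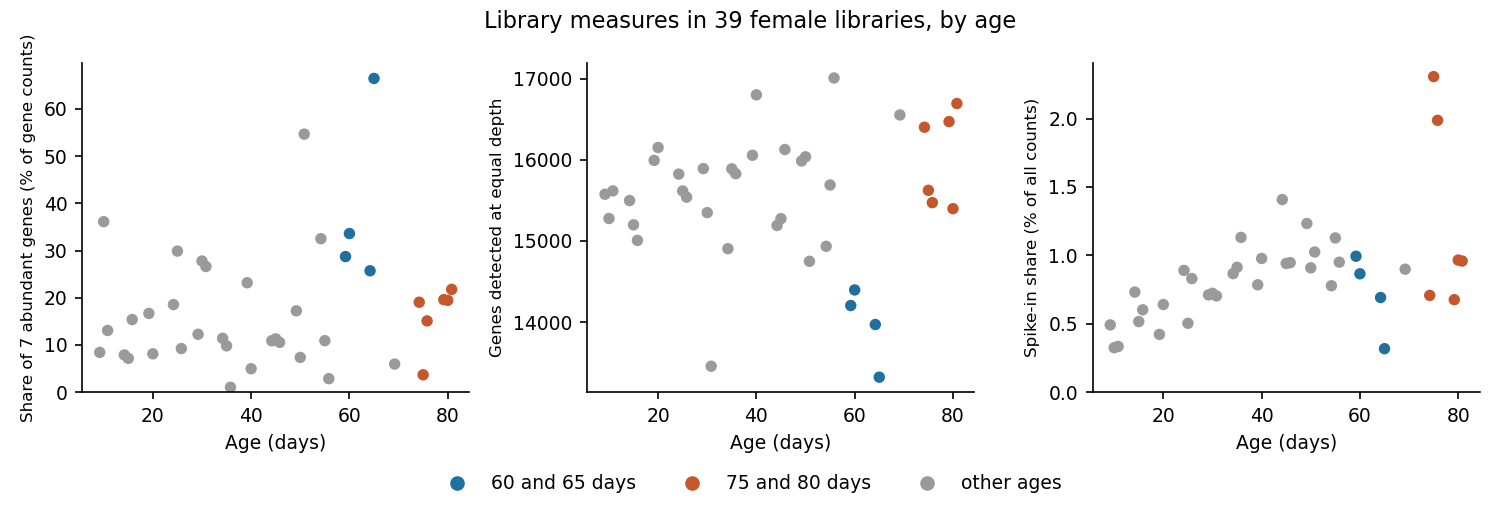
Each point is 1 of 39 female libraries, against age in days with replicates set side by side: the share of gene counts in the block of 7 abundant genes, the genes detected after thinning to 2242215 counts, and the spike-in share of all counts. The 6 later libraries lie below the 4 earlier ones in the first panel (at most 21.8% against at least 25.7%) and above them in the second (at least 15397 against at most 14395 genes).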

How the data were processed

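RNA of whole females was sequenced as pairs of 100 bases from Illumina TruSeq mRNA libraries, per the labels' protocols. The submitters' processing notes name the tools TopHat2 2.1.1 and DESeq2 1.20. Not given in the sources used here are the read counter, the strand setting and the genome build, so genes with near-identical copies or overlaps have uncertain counts. The authors deposited whole-number counts per gene, not normalised, for 26646 gene IDs and 7 spike-in rows in 80 columns; 3 columns belong to samples the labels exclude. They also deposited an age table with a log2 change per day, its standard error and a p-value, per the file headers.

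Spike-in rows were dropped from tests and library sizes. The tests used edgeR 4.0.16 (R 4.3.3): low counts were filtered with filterByExpr, libraries were scaled with TMM, and p-values of the quasi-likelihood F-test were adjusted by Benjamini-Hochberg over all genes tested, with 0.05 as the threshold. The main comparison fitted the 10 libraries with 1 term for the group. A second fit held 39 female libraries with 1 mean per age. SEs are the log2 change over the root of the F value. Printed CPM use TMM sizes over the 39 libraries, and log2 CPM a prior count of 2. No 2 of the 10 libraries had identical counts. Named genes were the 2 higher and 2 lower of smallest p in each comparison or list, among genes whose mean log2 CPM was 3 or more. The members and gene lists were chosen with earlier results of these data known. The fits were tested on simulated data. Alternatives were DESeq2 1.42.0, limma-voom with quality weights from limma 3.58.1, RLE (relative log expression) sizes, tests with no low-count filter, a replicate block, covariates for depth and for a spike-in ratio, other codings of age, spike-in library sizes, fits without the abundant block, and leaving out each library. Fits without the 2 shallowest libraries or the 2 with the highest spike-in share, thinned replicate spread and thinning outside the block were added after seeing the data. Counts of reads are not independent molecules, so depth covers counting error only. Figures were drawn with matplotlib 3.10.9.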

Additional observations from a re-analysis of the deposited data

Results flagged for a closer look

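Of 48 groups of values tested for a library that stands apart, 5 had one by Dixon's test at the 95% level; chance alone flags about 1 in 20. In the later females 75-day replicate 2 lay far below the others in the share of the abundant block, 3.67%, and in the mean level of the genes at least 16-fold higher in females, 0.39 on the log2 scale of the 10 libraries. It is also the shallowest library. In the same group 75-day replicate 3 lay above the others for APZ42_024018, with 40.5 CPM. In the earlier females 60-day replicate 1 was apart for APZ42_033807, with 13.3 CPM, and 60-day replicate 3 for APZ42_015828, with 49.2 CPM.

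The late change differed from changes at younger ages by the test of the difference itself. It did so for 5775 genes against the early change and for 4940 against the midlife change. The spread in these tests is pooled over all ages and may be too small for the late change. In the fit of the old libraries alone, 0 genes passed for the late change. The difference between the late and the early log2 change was 2.56 for APZ42_013592, 3.32 for APZ42_015273, -3.95 for APZ42_026926 and -2.59 for APZ42_024018. Against the midlife change it was 2.49 for APZ42_013592, 2.24 for APZ42_011412, -3.29 for APZ42_026926 and -1.80 for APZ42_016294.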

How the results depend on the processing

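Of the values that answer a comparison, 235 under other settings counted as the same, 27 moved, 2 reversed and 1 no longer passed. A count was the same if equal or within 1.5 times, and a test if it kept its direction and side of the threshold. A list median was the same if it kept its sign and moved by less than 1 SD of the list level within groups. That rule is loose for the male list, whose level varied most. Thinned replicate spreads were all counted as moved. The late count of 0 became 386 with DESeq2, 2283 with all 39 libraries and 146 for 80 against 60 days, and 0 to 93 on leaving out 1 library. The difference of 80 and 75 days went from 2 calls to 38 with DESeq2, 1 with a replicate block and 0 to 2 without 1 library; that of 65 and 60 days went from 0 to 166 with DESeq2. The early change had 9767 calls with limma-voom. Midlife calls were 1500 with spike-in sizes and 2197 to 3543 without 1 library, the lowest without 40-day replicate 1. Late calls in the 39-library fit were 285 with limma-voom, 99 with spike-in sizes and 1588 to 2993 without 1 library. The tests of a difference gave 3422 (early) and 1637 (midlife) with spike-in sizes. The rising, falling and male lists had medians of -0.43, 0.15 and -0.11 with spike-in sizes; the male list ran from -0.055 to 0.28 without 1 library, and the female list at 16-fold had 1.09. APZ42_028735 reversed to 0.53 for 80 against 60 days and APZ42_015828 to -0.0074 with spike-in sizes. The log2 share of the abundant block differed by -1.48 to -0.93 without 1 library. Thinned, the replicate SD was 0.43, 0.47, 0.69 and 0.46 at 60, 65, 75 and 80 days. The cause of these shifts was not tested, beyond fewer counts in the thinned values.

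Whether replicate numbers mark a pairing was not settled. Of 12 same-numbered pairs 3 correlated over 0.1 (-0.11 to 0.19), and 5 of 10 libraries correlated best with their own number. At 60 and 65 days, with 2 libraries each, the correlations of the 2 mirror each other. For 75-day replicate 1 they were -0.060 with 60-day replicate 1 and 0.060 with 60-day replicate 3. These counts therefore cannot speak for or against a pairing. With the replicate block the main count stayed 0 and the late count was 2004. Depth limits genes of low level most, in 75-day replicate 2 above all.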
